A study of Mus musculus with 18 samples.

Results

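The genes described here are the 5 named inhibitors of metalloproteinases that act at or near the cell surface and in the matrix, Timp1, Timp2, Timp3, Timp4 and Reck. They were taken by name, with earlier results of these data known, from the 49184 mouse genes to which the transcripts of the libraries were assigned. All 5 passed the filter on low counts. Timp proteins are secreted and block matrix metalloproteinases (Mmps) by occupying the active site. Reck is anchored in the cell membrane and inhibits several of the same enzymes from there. In cartilage the balance between these inhibitors and the Mmp, Adam and Adamts proteinases is known to bear on the loss of collagen and of aggrecan in osteoarthritis.

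RNA of femoral condyle cartilage was sequenced in 18 libraries from male C57BL/6J mice of 12 weeks, a wild-type strain. In the injured mice a single compressive load ruptured the anterior cruciate ligament (ACL) of the right knee under isoflurane, buprenorphine was given, and the left knee served as the contralateral control. There were 3 injured and 3 contralateral libraries at day 1 after rupture, 3 of each at day 7, and 6 libraries from naïve mice, which had no rupture and are labelled day 7, so that day 1 knees were compared with naïve knees of day 7. Each library was a pool of knees: the study's scheme gives 2 mice per library at day 1 and 4 at day 7, whereas the text deposited with the series gives 4 for every library, and it speaks of medial caps, although each sample is labelled femoral condyle. The study's methods count 6 naïve mice, whose left and right knees went into different libraries, so that the 6 naïve libraries share mice. Injured and contralateral libraries also came from the same pools of mice, but the labels do not tie them. The study allowed for the shared pools in its own tests, whereas here n counts libraries and P-values treat them as independent. Totals ranged from 16074762 to 41794005 estimated counts per library, with a median of 25465706. At this depth Timp4, the least abundant of the 5 genes, had between 37.0 and 353 estimated counts per library, and Timp2 had between 2736 and 27497.

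The libraries carried RNA of several tissues. Markers of chondrocytes were present, led by Col2a1, but Col1a1, a collagen of bone and fibrous tissue, was higher, with 12425 CPM (counts scaled to the library size after TMM normalization) ± 3807 (SD, n = 6) in naïve libraries against 3240 ± 886 for Col2a1. The red cell gene Hba-a1 was at 4649 ± 673 CPM in the same libraries. Fewer cells of a type and less RNA per cell cannot be told apart in such pooled tissue.

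Before the results, 4 libraries need to be named. Naïve replicate 5, day 1 contralateral replicate 3 and day 1 injured replicate 2 had far more Timp1 than the other libraries of their groups, at 94.1, 93.8 and 87.7 CPM, and they also shared low values of Timp4. They had lower sums of adipocyte markers than the rest of their groups, at 504, 527 and 432 CPM, and of skeletal muscle markers, at 2588, 3816 and 2878 CPM. Among the naïve libraries, replicate 5 had the most genes that lay far above the other 5 by Dixon's criterion, 353 of 21262, against 88 to 223 genes in each of the others. Far below lay 54 of its genes, against 42 to 87 in each of the others. Log2 fold changes of the inhibitors in day 7 injured against naïve and day 7 contralateral libraries are given with and without these 3 libraries. For shares of the Timp total and the ratio of Mmp to Timp levels, the value of naïve replicate 5 is given too. Shares within the Mmp total and of single transcripts are given as group means only. In addition, 42.5% of the counts of day 7 contralateral replicate 1 fell to its 10 most abundant genes, against 16.6% to 29.8% in the 17 others, and its TPM value of Timp2 was 12.0, against 55.5 and 51.0 in the other libraries of its group.

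To compare the inhibitors with each other, TPM values, which correct for transcript length and library total, were summed per gene. In naïve libraries the order of mean TPM levels was Timp2 at 43.0 ± 6.82, Timp3 at 30.4 ± 6.87, Timp1 at 18.7 ± 28.8, Reck at 3.77 ± 0.376 and Timp4 at 1.20 ± 0.418 (SD, n = 6). The mean of Timp1 was carried by replicate 5, and the median over the 6 libraries was 7.59 TPM. The ranges of Timp2 and Timp3 overlapped between libraries, yet Timp2 was above Timp3 in 18 of 18 libraries when both were read within a library. Timp1 was above Reck in 17 of 18, and Reck was above Timp4 in 18 of 18.

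At day 7 after rupture the make-up of the Timp transcripts shifted towards Timp2 and away from Timp3 and Timp4. As a share of the summed TPM of the 4 Timps, Timp2 made up 66.3%, 70.7% and 72.6% in the day 7 injured libraries, above every other library, whose highest share was 58.2%. Timp3 made up 33.7% ± 8.43 (SD, n = 6) in naïve and 10.5% ± 1.56 (SD, n = 3) in day 7 injured libraries, and the ranges did not overlap, 19.9% to 45.3% against 8.71% to 11.5%. Naïve replicate 5 held the 19.9%, and the other 5 naïve libraries were at 30.8% or more. The share of Timp4 was 1.38% ± 0.531 against 0.162% ± 0.0493, with naïve replicate 5 at 0.351% and the other 5 at 1.37% or more. Because the shares sum to the whole, a higher share of Timp2 lowers the others without any change in their own levels. Timp1 held 17.8% to 22.0% of the total in day 7 injured and 9.98% to 12.997% in day 7 contralateral libraries. In the 3 libraries of high Timp1 outside the day 7 injured group it held 55.5%, 55.4% and 55.6%, more than in any day 7 injured library. These shares are descriptions, and no test was made of them.

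**Figure D1:**
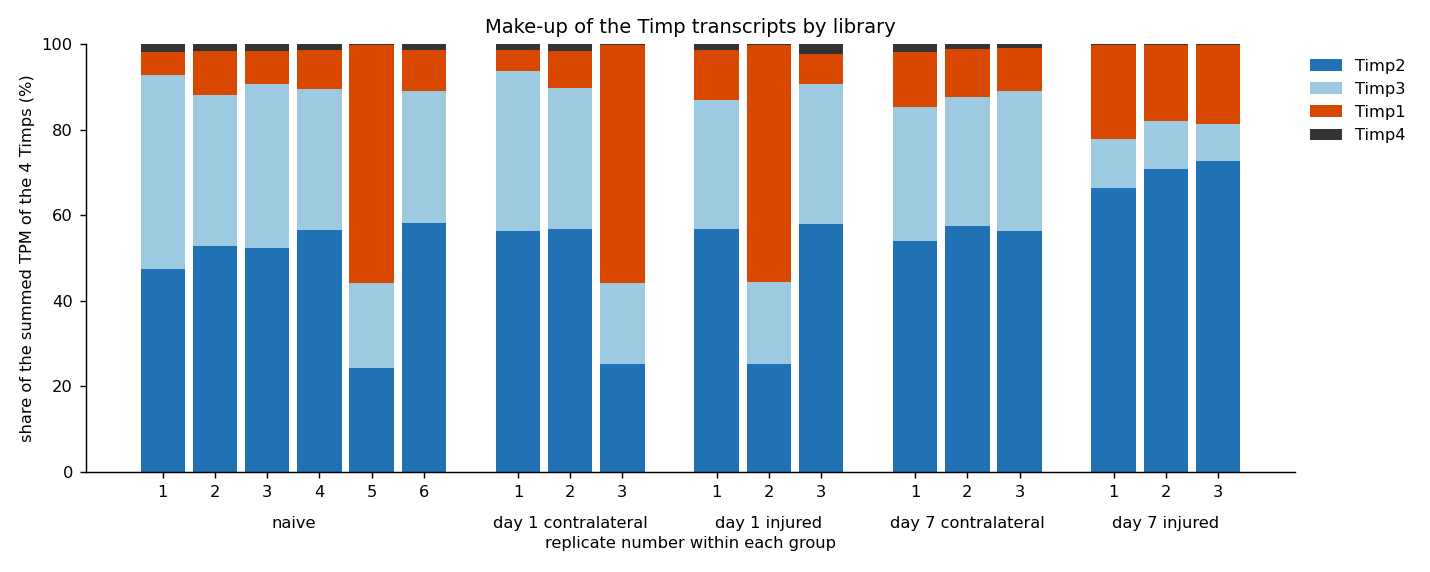
Share (%) of the summed TPM of Timp1, Timp2, Timp3 and Timp4 held by each gene, 1 bar per library and grouped by condition. Timp2 held 66.3% to 72.6% in the 3 day 7 injured libraries, and Timp1 held 55.4% to 55.6% in naïve replicate 5, day 1 contralateral replicate 3 and day 1 injured replicate 2.

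Timp2, which inhibits most Mmps and at the cell surface also helps Mmp14 to activate the precursor of Mmp2, changed most clearly. It lies on chromosome 11 (118301069 to 118355740, minus strand, GRCm38; ENSMUSG00000017466). Its levels in the day 7 injured libraries were 816, 880 and 1272 CPM. In day 7 contralateral libraries they were 213, 225 and 251 CPM, and in the 6 naïve libraries they ran from 169 over a median of 231 to 302 CPM. All 3 day 7 injured libraries were thus above all 15 others, the highest of which was at 302 CPM. In TPM they were at 93.7, 148 and 230, and day 1 injured replicate 3, at 95.9, was above the lowest of them. The level was 4.27-fold higher than in naïve libraries, with a 95% interval from 3.21-fold to 5.67-fold (log2 fold change 2.09 ± 0.192 SE, FDR = 1.2e-06, edgeR quasi-likelihood test). Against the contralateral knees of the same day it was 4.31-fold higher (log2 fold change 2.11 ± 0.234 SE, FDR = 6.1e-06). Exact permutation tests of the log2 CPM of day 7 injured against naïve libraries (two-sided, not adjusted over the 5 genes) gave P = 0.0238 for Timp2 and Reck, the smallest value that 3 against 6 libraries allow, 0.0476 for Timp4, 0.0952 for Timp1 and 0.524 for Timp3. Any gene whose 2 groups do not overlap gets this smallest value, and the share of all genes without overlap was not counted. By the edgeR test, 8679 of 21129 genes had an unadjusted P under 0.05 in this comparison.

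At day 1 the Timp2 levels were 297, 167 and 293 CPM in injured and 208, 195 and 154 CPM in contralateral libraries. The groups overlapped, and the log2 difference of 0.44 had a 95% interval from -0.06 to 0.93 (FDR = 0.764). The injury effect at day 7 exceeded that at day 1 by 1.66 ± 0.320 SE on the log2 scale (FDR = 0.00567, edgeR), a test of the difference itself. Timp2 was lowest within its group in each of the 3 libraries of high Timp1, at 169, 154 and 167 CPM, and without them its log2 fold change was 1.997 against naïve and 2.11 against day 7 contralateral libraries, and the difference between the days was 1.56.

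Reck, which lies on chromosome 4 (43875530 to 43944806, plus strand; ENSMUSG00000028476), inhibits Mmp2, Mmp9, Mmp14 and Adam10 and is also a partner of the receptor Adgra2 in Wnt7 signalling. In day 7 injured libraries it was at 37.0, 44.2 and 44.0 CPM. The naïve libraries ran from 21.5 over a median of 27.2 to 29.3 CPM, and the day 7 contralateral libraries were at 26.5, 22.0 and 24.8 CPM. The highest library outside the day 7 injured group was day 1 injured replicate 1, at 30.96 CPM, so that the groups were apart on the CPM scale. They were not on the TPM scale, where day 7 injured libraries were at 3.32, 6.10 and 5.19, naïve ones between 3.31 and 4.34 and day 1 injured ones between 4.16 and 6.95. Relative to naïve libraries Reck was 1.63-fold higher (95% interval from 1.36-fold to 1.95-fold, log2 fold change 0.70 ± 0.123 SE, FDR = 5.3e-04), and relative to day 7 contralateral libraries 1.71-fold higher (log2 fold change 0.77 ± 0.148 SE, FDR = 0.00118). Its rise was thus small beside that of Timp2, and the lower end of both intervals is under the 1.5-fold limit used for calls. Between day 7 and day 1 its injury effect differed by 0.57 ± 0.208 SE, which did not pass (FDR = 0.158). Without the 3 libraries of high Timp1 these 3 values were 0.65, 0.77 and 0.47.

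Timp1 is a secreted inhibitor that is weak against the membrane Mmps and is known as a gene induced by cytokines and growth factors. It lies on chromosome X (20870166 to 20874735, plus strand; ENSMUSG00000001131). In day 7 injured libraries its levels were 59.1, 59.3 and 83.3 CPM, and in day 7 contralateral libraries 10.1, 11.1 and 11.4 CPM, with no overlap. In the 6 naïve libraries it was at 5.93, 11.9, 9.40, 10.7, 94.1 and 9.27 CPM, so that 5 lay between 5.93 and 11.9 and replicate 5 lay above every day 7 injured library. At day 1 the injured libraries were at 15.3, 87.7 and 8.70 CPM and the contralateral ones at 5.26, 8.06 and 93.8 CPM. Each of these 3 groups thus held a library far above its others. Against naïve libraries the log2 fold change was 1.52 ± 0.960 SE (95% interval from -0.53 to 3.56, FDR = 0.250), and against day 7 contralateral libraries it was 2.63 ± 1.16 SE (95% interval from 0.19 to 5.07, FDR = 0.129), neither of which passed.

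All groups shared 1 estimate of the spread. The 3 libraries thus entered it for day 7 injured against day 7 contralateral knees too, although these groups hold none of them. Fitted on the 6 libraries of these groups alone, the log2 fold change of Timp1 was 2.62 and passed (FDR = 1.7e-04). Leaving out single libraries aside, this was 1 of 8 planned settings for that comparison, and none of the others called Timp1. Without naïve replicate 5 the change against naïve libraries was 2.85. Without all 3 libraries it was 2.83 against naïve and 2.63 against day 7 contralateral libraries, and these values are given without a test since the libraries were picked by their Timp1 level. For Timp1 the median of the day 7 injured libraries was 5.89 times that of the naïve libraries, whereas the ratio of the means was 2.85.

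Timp4, the inhibitor known for its expression in heart, muscle and fat, was low throughout, and its mean was lowest in the injured knees of day 7. It lies on chromosome 6 (115241892 to 115252205, minus strand; ENSMUSG00000030317). In day 7 injured libraries it was at 3.95, 2.34 and 3.01 CPM, and in day 7 contralateral libraries at 9.90, 6.46 and 6.08 CPM, with no overlap. The 6 naïve libraries ran from 3.06 over a median of 8.14 to 9.87 CPM, and naïve replicate 5 was the lowest of them. At day 1 the injured libraries were at 7.88, 2.03 and 14.6 CPM and the contralateral ones at 6.73, 7.62 and 2.78 CPM, with the low values in the same 2 libraries that were high in Timp1. The log2 fold change was -1.27 ± 0.514 SE against naïve libraries (FDR = 0.0751) and -1.24 ± 0.551 SE against day 7 contralateral libraries (FDR = 0.131), and neither passed. Without naïve replicate 5, which was also the lowest naïve library in Timp4, the first of these was -1.44. It was -1.45 without all 3 libraries, where the second was -1.24. When only the 2 groups compared were fitted, both passed, at -1.29 against naïve (FDR = 0.0122) and -1.25 against day 7 contralateral libraries (FDR = 0.0271). Leaving out single libraries aside, this was 1 of 10 planned settings against naïve and 1 of 9 against day 7 contralateral libraries. None of the others called Timp4.

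Timp3, which binds to the matrix and also inhibits aggrecan-cleaving Adamts enzymes and Adam17, lies on chromosome 10 (86300372 to 86349506, plus strand; ENSMUSG00000020044). It was at 201, 248 and 267 CPM in day 7 injured, at 150, 200 and 245 CPM in day 7 contralateral, and between 195 and 325 CPM in naïve libraries, with a median of 262 CPM. The day 1 libraries lay between 197 and 262 CPM. All groups overlapped. The log2 fold change of day 7 injured against naïve libraries was -0.09, with a 95% interval from -0.42 to 0.24 (FDR = 0.674), which excludes a change of 1.5-fold in either direction. Against day 7 contralateral libraries it was 0.26, with an interval from -0.15 to 0.68 (FDR = 0.399), which does not. Without the 3 libraries of high Timp1 these values were -0.17 and 0.27.

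**Figure D2:**
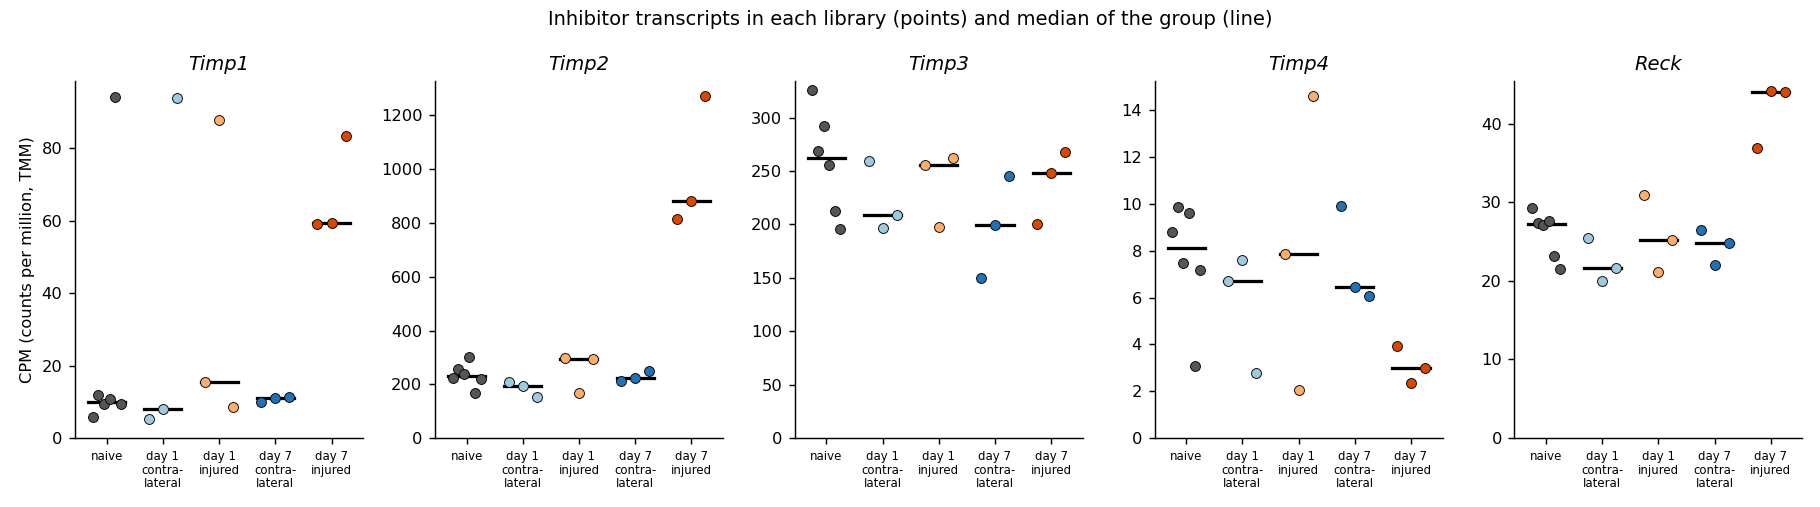
CPM (y axis, linear and from 0, with its own scale for each gene) of Timp1, Timp2, Timp3, Timp4 and Reck in each of the 18 libraries by group, with 1 point per library and a line at the group median. The 3 day 7 injured libraries lie above all others for Timp2 (816 to 1272 CPM) and Reck (37.0 to 44.2 CPM), and 1 library in each of the naïve and both day 1 groups lies at 87.7 to 94.1 CPM for Timp1.

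Set against all genes, 2 of the 5 inhibitors, Timp2 and Reck, were called higher in day 7 injured than in naïve libraries and none lower, where 10.4% of the 21129 genes tested were called higher and 6.11% lower (FDR of at most 0.05 and at least 1.5-fold). The median log2 fold change of the 5 was 0.70, and that of all genes was -0.04. The same 2 genes were called higher against day 7 contralateral libraries, where the background was 9.33% higher and 3.23% lower, and against day 1 injured libraries, where it was 9.04% and 6.38%. In that last comparison the log2 fold changes were 1.99 ± 0.240 SE for Timp2 (FDR = 3.7e-05) and 0.71 ± 0.145 SE for Reck (FDR = 0.00249), and without day 1 injured replicate 2 Reck fell to 0.58, under the 1.5-fold limit. The comparisons share libraries. When the injury effect of day 1 was subtracted from that of day 7, Timp2 alone of the 5 was called, against a background of 3.53% higher and 0.245% lower.

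No inhibitor was called at day 1 or in a contralateral group. Each of the naïve and both day 1 groups holds 1 of the 3 alike libraries of high Timp1, and groups were kept as labelled. Whether those labels are right was not tested, and the naïve and day 1 values rest on them. The edgeR test called 0 genes, 0% of those tested in either direction, for day 1 injured against naïve, day 1 injured against day 1 contralateral, day 1 contralateral against naïve and day 7 contralateral against naïve libraries. At an unadjusted P under 0.05 there were 959, 1383, 554 and 3220 genes in these comparisons, and limma-voom called none. The DESeq2 test called 15 genes lower in the first, none in the second, 1 higher and 1 lower in the third, and 18 higher and 13 lower in the fourth. Of the inhibitors Timp3 had an unadjusted P of 0.0449 between day 7 contralateral and naïve libraries, at a log2 fold change of -0.38 (FDR = 0.322), which was -0.22 without day 7 contralateral replicate 1. The log2 fold changes of day 1 injured against naïve libraries were 0.66 for Timp1, 0.10 for Timp2, -0.11 for Timp3, 0.09 for Timp4 and -0.01 for Reck. For Timp1 the interval of that value ran from -1.42 to 2.74, so that a large change could not be told from none.

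**Figure D3:**
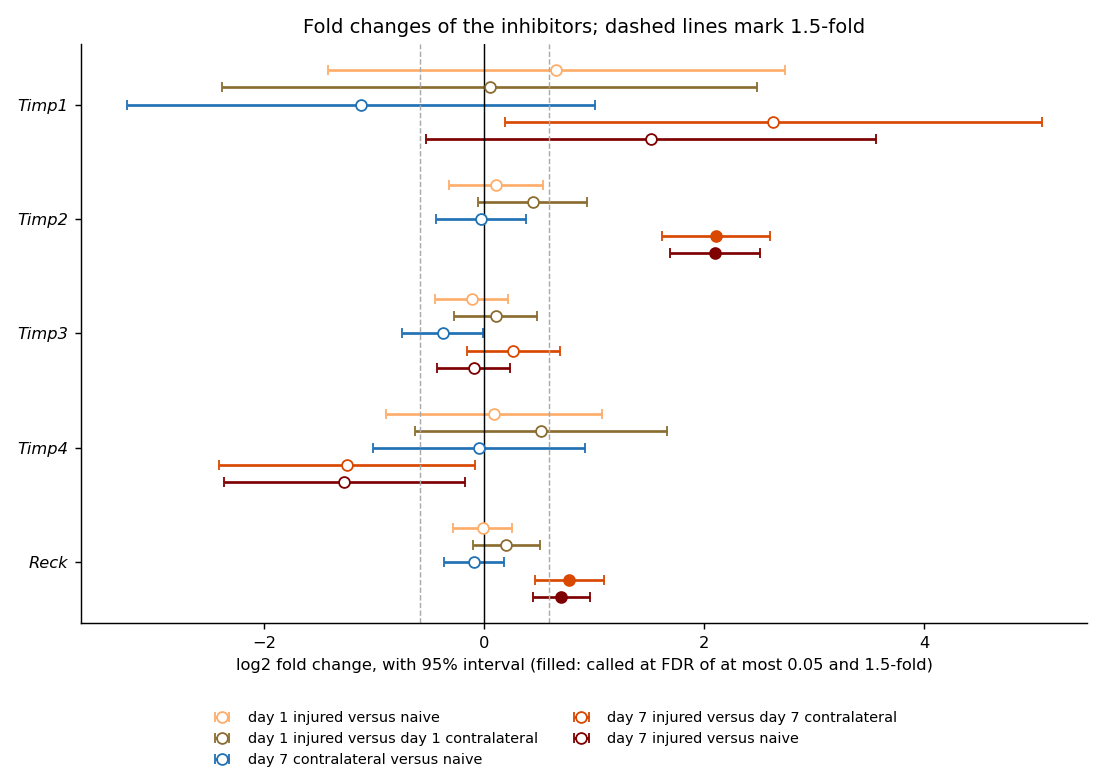
Log2 fold change (x axis) with its 95% interval for each inhibitor in 5 comparisons, with filled symbols where the gene was called and dashed lines at 1.5-fold. Timp2 (2.09 and 2.11) and Reck (0.70 and 0.77) were called in both day 7 comparisons of injured knees, while the intervals of Timp1 span several log2 units.

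The sequences just before the transcription starts are shown for the genes that were called, Timp2 and Reck, and for Timp4, which had no such call, from 100 bases before to 10 bases after the start that RefSeq gives in build GRCm38.p6. Each of the 5 genes matched 1 window in the table, which spans 250 bases before to 50 after the start. Capitals mark the GC box GGGCGG on either strand, a motif bound by Sp1-type factors. It was found in the whole window of Timp1, Timp2, Timp3 and Reck and not in that of Timp4, and 35.7% of all 32851 promoter windows hold it.
Timp2 (chr11:118355402-118355511, minus strand): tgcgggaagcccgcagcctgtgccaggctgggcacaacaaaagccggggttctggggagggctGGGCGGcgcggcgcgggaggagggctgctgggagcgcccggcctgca
Reck (chr4:43875430-43875539, plus strand): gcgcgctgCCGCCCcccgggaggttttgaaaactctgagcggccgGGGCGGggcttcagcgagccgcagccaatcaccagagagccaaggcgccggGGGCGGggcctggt
Timp4 (chr6:115252196-115252305, minus strand): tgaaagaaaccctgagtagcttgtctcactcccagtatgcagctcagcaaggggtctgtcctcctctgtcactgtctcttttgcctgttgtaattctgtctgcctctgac
The window of Timp1 held the motif TGAGTAA, a variant of the site of AP-1 factors, beginning at base 27 when the start is base 1, as shown here in capitals with its flanks. On either strand, 2.68% of all windows hold this motif.
Timp1 (chrX:20870182-20870208, plus strand): ggtgggtggaTGAGTAAtgcgtccagg
The AP-1 consensus TGANTCA, held by 7.81% of windows, the motif TATAAA, held by 13.6%, and TTCNNNGAA, a motif of Stat factors held by 8.30%, were in none of the 5 windows. The GC content of the windows was 68.7% for Timp2, 69.3% for Reck, 67.0% for Timp3, 55.0% for Timp1 and 53.3% for Timp4, with a median of 52.7% over all windows. These matches describe the letters and show no binding.

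Transcripts of each gene were compared by their TPM. Timp2-201, a transcript of 3709 bases, held 73.6% ± 5.07 (SD, n = 6) of the Timp2 TPM in naïve libraries and 72.5% ± 11.2 (SD, n = 3) in day 7 injured libraries, and the shorter Timp2-202 of 718 bases held the rest. The share of this main transcript thus differed by less than its SD while the gene rose. For Reck the coding transcript Reck-201 held 79.2% ± 3.79 and 83.4% ± 12.9, respectively. Timp3-201 held 93.4% ± 2.28 in naïve libraries, and the coding transcripts Timp1-201 and Timp4-201 held 67.6% ± 5.95 and 55.1% ± 9.11. Timp1, Timp3 and Timp4 lie within the synapsin genes Syn1, Syn3 and Syn2 on the opposite strand, and exons overlap for Timp3 and Timp4. Levels of these neighbours were low, between 0.611 and 2.40 CPM as group means, so that reads shared with them could add little to Timp3 but are not negligible beside Timp4. Syn3 was called lower in day 7 injured than in naïve libraries (log2 fold change -0.65 ± 0.232 SE, FDR = 0.0474), from a mean of 1.73 to one of 1.07 CPM, and Syn1 had a log2 fold change of 0.58 (FDR = 0.106).

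The proteinases that these inhibitors act on were taken from lists of secreted and membrane Mmps. Among secreted Mmps 4 of 11 tested were called higher in day 7 injured than in naïve libraries and none lower, with a median log2 fold change of 0.38. Mmp2, a gelatinase, rose most, with 124 ± 17.8 CPM (SD, n = 6) in naïve and 1197 ± 195 CPM (SD, n = 3) in day 7 injured libraries (log2 fold change 3.29 ± 0.153 SE, FDR = 1.8e-09). Mmp11 rose by 1.89, Mmp19 by 1.62 and the collagenase Mmp13 by 0.88 on the log2 scale (FDR = 5.4e-08, 0.0152 and 0.00774). Relative to day 7 contralateral libraries Mmp13 differed by 0.12 and was not called, and its mean there was 462 CPM. Mmp9, made by neutrophils and osteoclasts, and Mmp8, made by neutrophils, were the secreted Mmps of highest TPM in naïve libraries. They had log2 fold changes of 0.02 (FDR = 0.936) and -0.47 (FDR = 0.0160), the second under the 1.5-fold limit. Of 8 neutrophil markers 2, S100a8 and S100a9, were called lower, and the summed level of the list, led by Ngp, was 11942 ± 1924 CPM in naïve and 8860 ± 1554 CPM in day 7 injured libraries. The part of neutrophils in the Mmp values was not tested.

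Among the membrane Mmps 4 of 7 were called higher and 1 lower, with a median log2 fold change of 0.71. Mmp14, the membrane proteinase for which Timp2 is both inhibitor and cofactor, rose from 98.3 ± 15.9 to 688 ± 130 CPM (log2 fold change 2.82 ± 0.150 SE, FDR = 4.6e-09). Mmp23 rose by 2.72 and Mmp16 by 0.85, while Mmp24 fell by 1.11 at a level under 1 CPM. Mmp25, the other membrane Mmp named for its TPM, had a log2 fold change of -0.46 (FDR = 0.00567, under the 1.5-fold limit). Mmp2, Mmp14 and Timp2, which form the activation complex of Mmp2 at the cell surface, were each called higher at day 7 against both controls, and for each the injury effect at day 7 exceeded that at day 1, by 2.47 for Mmp2 (FDR = 4.1e-05) and by 2.02 for Mmp14 (FDR = 1.2e-04). Summed over 23 Mmps and 4 Timps, the ratio of Mmp to Timp TPM was 3.68 ± 1.00 (SD, n = 6) in naïve, 2.73 ± 0.596 in day 7 injured and 5.87 ± 0.539 (SD, n = 3) in day 7 contralateral libraries. Naïve replicate 5 had a ratio of 2.17, whereas the other 5 naïve libraries were at 3.47 or more and the day 7 injured ones at 3.36 or less. Within the Mmp total the share of Mmp2 was 6.71% ± 0.698 in naïve and 30.1% ± 2.42 in day 7 injured libraries, and the share of Mmp9 was 41.2% ± 2.36 and 18.9% ± 2.71.

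Adam sheddases, which release membrane proteins and of which Timp3 and Reck inhibit some, were called higher for 3 of 9 and lower for 1, with a median log2 fold change of 0.42. Adam12 rose by 2.31 ± 0.342 SE on the log2 scale (FDR = 1.2e-04), Adam9 by 1.14 and Adam15 by 0.71, and Adam33 fell by 0.72. Adam10, a target of Reck, differed by -0.04 (FDR = 0.767). Of the Adamts proteinases 12 of 18 tested were called higher and none lower, with a median log2 fold change of 1.24. Adamts16 rose from 1.05 ± 0.481 to 16.6 ± 3.60 CPM, and the aggrecanase Adamts4 from 5.39 ± 2.84 to 31.3 ± 3.92 CPM (log2 fold change 2.55 ± 0.467 SE, FDR = 7.7e-04). Adamts12 rose by 2.30 and Adamts15 by 1.89, and the procollagen proteinase Adamts2 by 1.32, whereas Adamts10, second to Adamts2 in naïve TPM, had a log2 fold change of 0.20 (FDR = 0.331). The aggrecanase Adamts5, named here outside the naming rule given below, had a log2 fold change of 0.06 (FDR = 0.734) and was not called. Timp3, the Timp that acts on aggrecanases, was not called either.

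In a list of further inhibitors, proteins that take up proteinases, and enhancers of procollagen processing, 4 of 11 tested genes were called higher. The median log2 fold change of the list was 0.48. The genes called were Pcolce, an enhancer of procollagen processing (log2 fold change 2.04 ± 0.137 SE), Tfpi2, a serine proteinase inhibitor (1.38 ± 0.220 SE), the uptake receptor Lrp1, which clears Timp3 and proteinases (1.00 ± 0.210 SE), and Serpine2 (0.59 ± 0.115 SE). The cathepsin inhibitor Cst3, among the highest of the list in TPM, had a log2 fold change of 0.28 (FDR = 0.0968). Of 7 tested binding partners 4 were called higher, with a median of 0.82. Adgra2, the receptor that works with Reck, rose from 19.9 ± 6.53 to 59.8 ± 9.47 CPM (log2 fold change 1.60 ± 0.260 SE, FDR = 2.8e-04), Cd63, a surface partner of Timp1, by 1.07, and the integrins Itgb1 and Itga3, partners of Timp2, by 1.01 and 0.82.

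Among cytokines of the interleukin-6 family, TGF-beta ligands and AP-1 factors, known regulators of Timp1 and other inhibitors, 8 of 20 were called higher and none lower, with a median log2 fold change of 0.90. Tgfb3 rose by 1.86 ± 0.144 SE on the log2 scale, Tgfb2 by 1.35, the AP-1 gene Fosb by 1.60 and the feedback inhibitor Socs3 by 1.43. Tgfb1 and the shared receptor Il6st, the members of highest TPM, had log2 fold changes of -0.07 (FDR = 0.586) and 0.54 (FDR = 0.0026, under the 1.5-fold limit). In each list the members called are given beside a background of 10.4% higher and 6.11% lower. Mmp3 and Il6, named after their values were seen, were high in the same 3 libraries as Timp1. Mmp3 was at 27.2, 23.7 and 29.3 CPM in naïve replicate 5, day 1 contralateral replicate 3 and day 1 injured replicate 2, at 29.6 to 36.7 CPM in day 7 injured libraries and at no more than 12.6 CPM elsewhere. Il6 was at 2.03, 2.57 and 3.21 CPM in the 3 libraries and at no more than 0.925 CPM in the others, day 7 injured knees included.

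**Figure D4:**
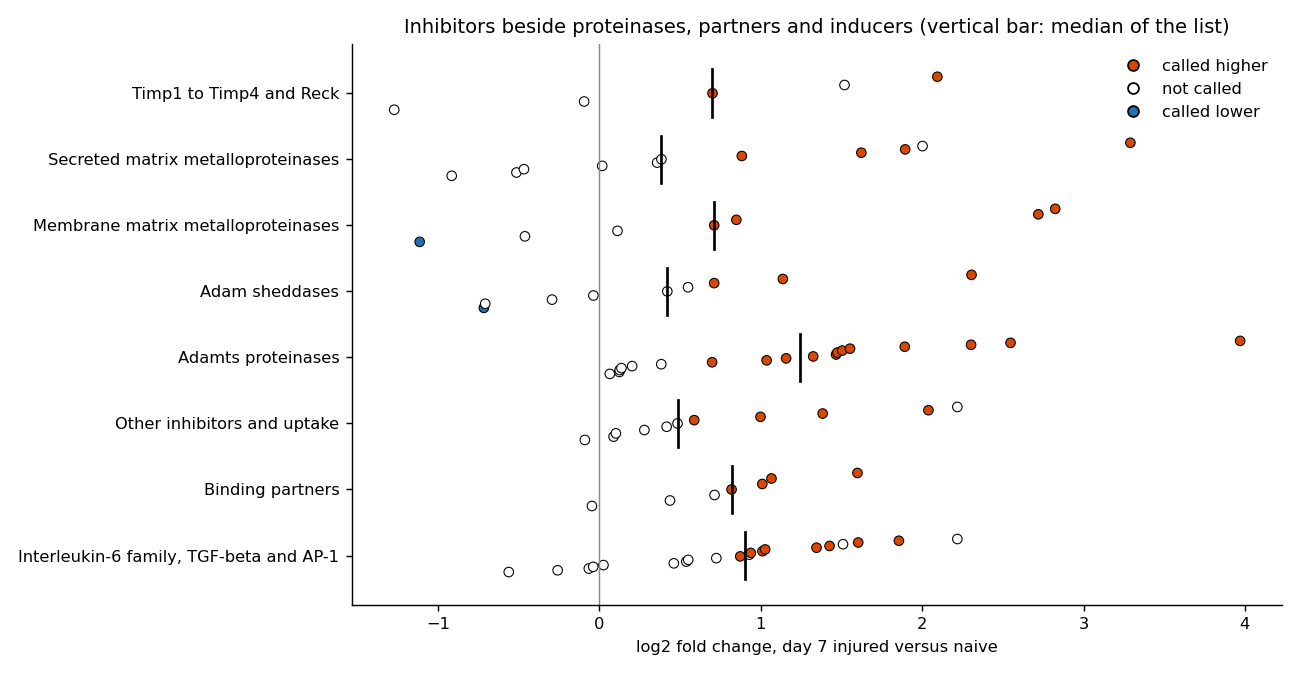
Log2 fold change (x axis) of day 7 injured against naïve libraries for each tested gene of the inhibitors, proteinases, partners and inducers, 1 row per list, with filled symbols for genes called and a bar at the median. The inhibitors span -1.27 (Timp4) to 2.09 (Timp2), and 12 of 18 Adamts genes were called higher.

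The 5 inhibitors differed in the genes whose pattern over the 18 libraries was most like theirs, by Pearson's r of log2(CPM + 0.5) among 15874 genes. For Timp2 these were Sdc2, Htra1, Tgfb3, Angptl1 and C1s1 (r from 0.984 to 0.987), and for Reck they were Lrp6, Pam, Bace2, Esyt2 and Tro (0.945 to 0.953). For Timp1 they were Tgfbi, Slc39a14, Pdpn, Fam129b and Chl1 (0.968 to 0.985). Timp4 was most like Gpd1, Acacb, Perm1, Amy1 and Ckmt2 (0.950 to 0.970), of which Gpd1 and Acacb act in lipid metabolism of fat and muscle and Perm1 and Ckmt2 in muscle energy metabolism. The values for Timp3, with Agtpbp1, Zfp644, Nr3c2, Dmd and Rasgrf2, were lower (0.827 to 0.843). These r values are descriptions over libraries that fall into groups, and the points share libraries and their depth.

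Pdpn, a surface protein of lining fibroblasts, was at 40.8 to 52.4 CPM in day 7 injured libraries and at 45.5, 54.1 and 47.5 CPM in the 3 libraries of high Timp1, and between 5.69 and 15.2 CPM in the 12 others. The sum of the fibroblast marker list, which includes Pdpn, was not raised alike. It was 16910, 15119 and 19256 CPM in these 3 libraries, against 97864 to 111716 CPM in day 7 injured libraries. Gpd1, most like Timp4, was at 30.4 to 42.8 CPM in day 7 injured libraries and at 35.0, 38.3 and 25.02 CPM in these 3 libraries, against 60.8 CPM or more elsewhere. Pdpn and Gpd1 were picked for their likeness to Timp1 and Timp4 over the same libraries. Their values in these 3 libraries thus follow from that choice and are no separate evidence. Whether these libraries differ from the rest of their groups by their tissue, by handling or by label was not tested.

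**Figure D5:**
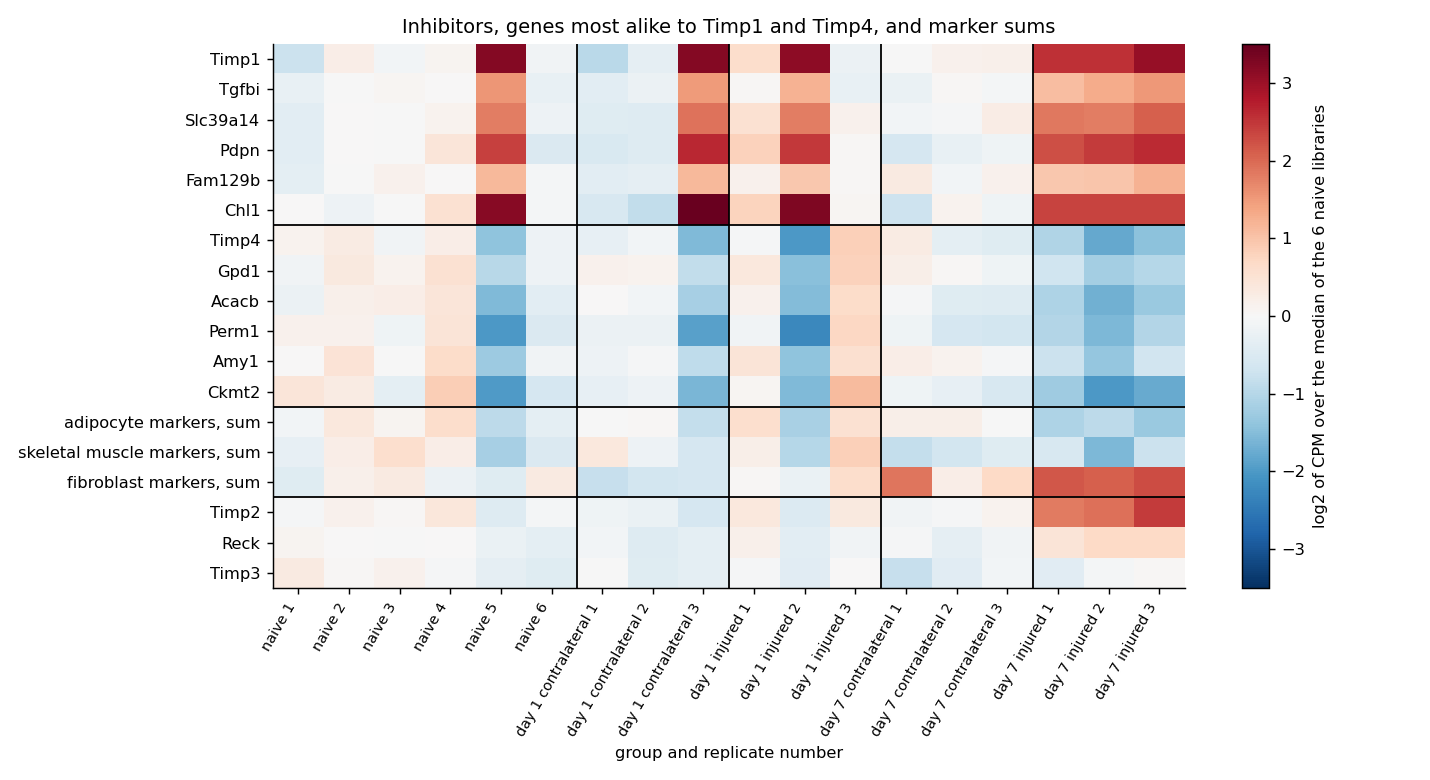
Log2 of the CPM over the median of the 6 naïve libraries (colour) for the inhibitors, the 5 genes most like Timp1 and Timp4 and the sums of 3 marker lists (rows) in each library (columns). Naïve replicate 5, day 1 contralateral replicate 3 and day 1 injured replicate 2 look like day 7 injured libraries in the rows of Timp1 and Timp4 but not in those of Timp2 and Reck.

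Markers of several other cell types also differed in day 7 injured libraries. Of 11 markers of connective tissue fibroblasts 8 were called higher in day 7 injured than in naïve libraries, and their summed level, led by Col1a1, was 104068 ± 7038 CPM (SD, n = 3) against 22659 ± 5431 CPM (SD, n = 6). All 4 tendon and ligament markers, led by Thbs4, were called higher, at 742 ± 82.7 against 233 ± 93.6 CPM. Of 5 markers of pericytes and smooth muscle, led by Rgs5, 4 were called higher (686 ± 84.9 against 358 ± 52.3 CPM), as were 4 of 7 endothelial markers, led by Vwf (582 ± 34.7 against 493 ± 33.2 CPM). Of 11 chondrocyte markers 3 were called higher (8394 ± 841 against 5813 ± 1242 CPM) and of 8 macrophage markers, led by Lyz2, none (2517 ± 274 against 2528 ± 295 CPM). Day 7 contralateral replicate 1, with Timp2 at 213 and Reck at 26.5 CPM, had a fibroblast sum of 84047 CPM, of which Col1a1 alone made up 52440.5 CPM, and its chondrocyte and erythroid sums were also high in its group, at 13953 and 62806.5 CPM. Over the 11 fibroblast markers the median log2 fold change of day 7 contralateral against naïve libraries was 0.04, and that of all genes was -0.03. The part of fibroblast, tendon and mural cells in the rise of Timp2 and Reck was not tested.

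Beside the low Timp4 of day 7, 5 of 9 adipocyte markers were called lower, and their summed level, led by Car3, was 441 ± 57.4 CPM in day 7 injured, 967 ± 335 CPM in naïve and 1035 ± 91.3 CPM in day 7 contralateral libraries. None of 6 skeletal muscle markers, led by Myh4, was called. Their summed level was 3120 ± 1035 CPM in day 7 injured, 5632 ± 2233 CPM in naïve and 3731 ± 533 CPM in day 7 contralateral libraries. The mean of Timp4 was 7.48 CPM in day 7 contralateral and 7.68 CPM in naïve libraries. Of 6 erythroid markers, led by Hbb-bs, 3 were called lower in day 7 injured than in naïve libraries (21494 ± 5356 against 32846 ± 3782 CPM). Of 8 markers of osteoblasts and osteocytes, led by Ibsp, 1 was called higher and 2 lower (717 ± 31.2 against 651 ± 118 CPM), and of 6 osteoclast markers, led by Acp5, 1 was called higher (1065 ± 66.9 against 593 ± 149 CPM). No marker of these lists was at 0 in every library. The part of fat and muscle in the Timp4 values was not tested.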

How the data were processed

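The authors trimmed the reads with Trimmomatic and pseudo-aligned them with kallisto to mouse transcripts of GRCm38, and deposited per transcript the estimated counts, which carry no normalization, the TPM values and the lengths. The submitters' notes name another build, GRCh38, although the identifiers are of mouse. The labels name a stranded total RNA kit with removal of ribosomal RNA.

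Of 137436 transcripts, 135107 (98.3%) matched GENCODE vM21 (GRCm38), and the rest held between 0.667% and 3.90% of a library's counts. Estimated counts were summed per gene and rounded. The deposited TPM values were summed per gene and used to compare genes with each other. Groups came from the labels, which tie no injured library to its contralateral one. Comparisons were made in edgeR 4.0.16 under R 4.3.3, by its quasi-likelihood test, with TMM normalization, filterByExpr (minimum count 10), a mean per group and Benjamini-Hochberg adjustment over all genes tested, on the 15 libraries other than day 7 contralateral or, where that group was compared, on all 18. A gene was called where its FDR was 0.05 or less and its change 1.5-fold or more. On simulated data for day 7 injured against naïve libraries, 195 of 200 genes changed 3-fold were called in the right direction and 11 unchanged genes were called, of 20626 tested. The simulated libraries were independent and held no libraries unlike their group. These rates thus do not carry over to libraries that share mice or to changes near 1.5-fold. DESeq2 1.42.0 and limma 3.58.1 (voom) were alternatives. Intervals are at 95% and treat libraries as independent.

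The inhibitors and gene lists were chosen with earlier results of these data known. From each list the text names the 4 genes of largest change among those called against naïve libraries and the 2 of highest naïve TPM, and for each inhibitor the 5 genes most like it, among genes with a median CPM of at least 1. One listed overlapping gene, Ddc8, was not found. Promoter windows came from RefSeq (GRCm38.p6). The study left out an ACL library of low mapping rate that it does not name, so all 18 were used.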

Additional observations from a re-analysis of the deposited data

Results flagged for a closer look

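Timp1 in naïve replicate 5 was at 94.1 CPM, far from the other 5 naïve libraries, the highest of which was at 11.9 CPM, and its share of the Timp total there was 55.5% where the next was 10.2%. In the same library the share of Timp2 was 24.3% (next 47.5%) and that of Timp4 0.351% (next 1.37%), both far below the others. Chance flags about 1 in 20 such groups, and these 4 values come from a single library.

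The injury effect differed between day 7 and day 1 by the edgeR test of the difference itself for Timp2, by 1.66 on the log2 scale (FDR = 0.00567). Among the genes named beside it the effect was also larger at day 7 for the proteinases Mmp2 (2.47), Mmp11 (1.46), Mmp14 (2.02), Mmp23 (1.85), Adamts16 (3.29) and Adamts12 (1.69), for the enhancer Pcolce (1.32), for the partners Adgra2 (1.62) and Itgb1 (0.96), and for the ligands Tgfb3 (1.63) and Tgfb2 (1.38), with FDRs from 4.1e-05 for Mmp2 to 0.0370 for Adgra2. Of all 21262 genes tested, 3.53% were called higher in this contrast. Most of the genes named were chosen for their change in the same day 7 injured libraries, so a larger effect at day 7 is partly built in.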

How the results depend on the processing

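Timp2 kept its calls against naïve, day 7 contralateral and day 1 injured libraries, and in the difference between the injury effects, under every alternative run, and Reck kept its calls against naïve and day 7 contralateral libraries. Over the planned settings the log2 fold change against naïve libraries ran from 2.07 to 2.16 for Timp2 and from 0.68 to 0.71 for Reck. Of 785 alternative values of the 5 genes, 731 kept both direction and call. Robust estimation and leaving out the 3 libraries of high Timp1 were chosen after seeing the data. Pooled knees, libraries that share mice and 3 libraries per injured group limit the precision. Timp1 had the largest SE, and Timp4 had as few as 37.0 counts. No paired analysis was possible because the labels give no numbers that tie injured to contralateral libraries. The cause of the changes below was not tested.

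With only the groups compared in the fit, Timp4 reached -1.29 against naïve and -1.25 against day 7 contralateral libraries and Timp1 2.62 against the latter, all now called. Leaving out single libraries aside, no other planned setting called them in these comparisons. Without the 3 libraries Timp1 was 2.83 against naïve and 2.63 against day 7 contralateral libraries and 1.77 in the difference of injury effects (2.57, FDR = 0.447, with all libraries, by edgeR), and Timp4 -1.45, -1.24 and -1.88 (the last -1.77, FDR = 0.244, with all). Timp1 went from 0.86 to 2.47 for day 7 against day 1 injured. There Timp1 changed sign to -0.50 for day 1 contralateral and 0.20 for day 7 contralateral against naïve, Reck to 0.090 for day 1 injured against naïve, and Timp3 to -0.13 for day 7 against day 1 injured. Timp3 in that comparison was also -0.00067 with size factors of DESeq2, -0.00068 with the DESeq2 test and -0.021 with only the groups compared. Timp4 was -0.27 for day 1 injured against naïve with limma-voom. With transcript length as an offset Reck was 0.035 for day 1 injured and 0.058 for day 1 contralateral against naïve and -0.023 for day 1 injured against contralateral. None of these values near 0 was called.

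Leaving out 1 library at a time gave, for day 7 injured against naïve, 1.32 to 2.85 for Timp1 (highest, and past the limits, without naïve replicate 5, which stands apart in Timp1, so that this is no support for a call), -0.18 to 0.019 for Timp3 and -1.48 to -1.12 for Timp4 (called, at -1.44, without naïve replicate 5). For day 1 injured against naïve it gave -0.97 to 1.996 for Timp1, -0.015 to 0.34 for Timp2, -0.18 to 0.013 for Timp3, -0.62 to 0.56 for Timp4 and -0.16 to 0.12 for Reck, and against day 1 contralateral -1.58 to 2.49 for Timp1 and -0.19 to 0.99 for Timp4. Day 7 against day 1 injured gave -0.11 to 0.13 for Timp3, day 1 contralateral against naïve -1.84 to 1.95 for Timp1, and day 7 contralateral against naïve -1.32 to 0.20 for Timp1, -0.11 to 0.055 for Timp2, -0.54 to -0.22 for Timp3 and -0.29 to 0.10 for Timp4. In the difference of injury effects, Timp1 ran from 0.14 to 4.20 and Timp4 from -2.23 to -1.05, none called. Without day 1 injured replicate 2, Reck lost its call between day 7 and day 1 injured libraries (0.58), as it did without the 3 libraries (0.56), and Timp4 gained one there (-1.84). Of all genes called lower in day 7 injured libraries, 1291 against naïve became 797 without day 7 injured replicate 3, and 686 against day 7 contralateral became 452 with limma-voom 279 with only the groups compared, and from 279 to 1058 when 1 library was left out. The 52 genes lower in the difference of injury effects became 25 without the filter, 160 with DESeq2, 27 with the length offset, 21 with only the groups compared, 80 without the 3 libraries, and from 9 (without day 7 injured replicate 3) to 91 (without day 1 injured replicate 2) when 1 library was left out. The 750 higher became 393 without day 7 injured replicate 3, 447 without day 1 contralateral replicate 3 and 483 without day 1 injured replicate 1. The 1347 lower in day 7 than day 1 injured libraries became 849, 891 and 884 without day 7 injured replicates 2 and 3 and day 1 injured replicate 3. With no fold limit, 3960 genes were higher and 2331 lower against naïve, 1310 lower against day 7 contralateral and 3427 higher against day 1 injured libraries. At an FDR of at most 0.01, 472, 251 and 382 were lower in these comparisons, and 341 were higher and 3 lower in the difference of injury effects.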

Other observations

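Relative to the contralateral knees of day 7, where 9.33% of all genes tested were called higher and 3.23% lower, the calls were 11 of 18 higher for Adamts proteinases, 4 of 11 higher for secreted Mmps, and 2 of 7 higher and 1 lower for membrane Mmps. The member called lower was Mmp25, which had a log2 fold change of -0.66 (FDR = 0.00125). Binding partners were called higher for 3 of 7 and the interleukin-6, TGF-beta and AP-1 genes for 7 of 20. Mmp13 was at 462 CPM in contralateral and 501 CPM in injured libraries of day 7, against 275 CPM in naïve libraries, so that its rise over naïve knees did not appear against the contralateral ones. Mmp9, at 1066 CPM in contralateral and 763 CPM in injured libraries of day 7, had a log2 fold change of -0.48 (FDR = 0.0474), under the 1.5-fold limit.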
